A study of Rattus norvegicus with 12 samples.

Results

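Hbb, Hbb-b1, Alas2 and Epb42, 4 genes of red blood cells and their precursors, were followed on arrays of endothelial cells (ECs) of the rat ductus arteriosus (DA) and aorta. Every probe set annotated to 1 of the 4 symbols alone was taken. Each gene had 1 such probe set, so 4 of the 26468 probe sets on the array were taken. All 4 passed the filter on low signals, which used means over the 12 arrays. Under a stricter filter on every single array, only Hbb passed. The genes were chosen with measured values of these same arrays known. Hbb, Hbb-b1 and Alas2 stood out in neonatal against fetal DA ECs. Epb42 did not, and the value by which it was chosen is not known here. For all 4, neonatal against fetal DA ECs is therefore given below as a description, without a test.

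There were 4 groups of 3 arrays: DA ECs of neonates (DA N), DA ECs of fetuses (DA F), aortic ECs of neonates (aorta N) and aortic ECs of fetuses (aorta F). All animals were Wistar rats delivered by caesarean section at term, on gestation day 21, and the labels name no allele and no agent. Neonates had breathed for 30 minutes before the vessels were taken, and fetuses had not breathed. Tissue of many animals from several litters was pooled, dispersed with collagenase and dispase, and sorted for cells that bound an antibody to CD31, an endothelial surface protein, and did not bind one to CD45, a surface protein of white blood cells. Gates on light scatter and a dye for dead cells also removed debris, doublets and dead cells. The sort as described carried no antibody against a red cell protein, and the paper's PCR checks of purity covered endothelial and smooth muscle genes. Each array is thus 1 pool of sorted cells, and a p-value sets a difference against the spread among pools. The main fits took the pools as independent, although arrays of equal replicate number tended to deviate alike. In these bulk samples, fewer cells of a type and less RNA per cell cannot be told apart.

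Hemoglobin carries oxygen in red cells and is built from alpha-globin and beta-globin chains, each holding a heme group. Hbb and Hbb-b1 encode beta-globin chains, Alas2 encodes the erythroid form of the first enzyme of heme synthesis, and Epb42 encodes protein 4.2, which ties the anion exchanger band 3 to the red cell membrane skeleton. In the fetus the DA carries most of the blood leaving the right ventricle past the lungs into the aorta, and it closes after birth. Mature red cells of mammals have no nucleus, but young ones still hold globin mRNA, and such young cells are plentiful in blood around birth.

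Both beta-globin genes lie on chromosome 1, and 2 genes, Hbbl1 and Hbb-b2, lie between them in the RefSeq annotation (GRCr8). The 250 bases before the start of each are shown because the signals of these neighbouring genes moved together on the arrays. They were taken from RefSeq on the minus strand of GRCr8, chr1:167663722-167663971 for Hbb and chr1:167643521-167643770 for Hbb-b1, and read 5′ to 3′. Capitals mark matches to CACACCC (the CACCC box of globin promoters), CCAAT (the CCAAT box, whose other strand reads ATTGG) and TATAAA (the TATA box), each searched on both strands.
Hbb: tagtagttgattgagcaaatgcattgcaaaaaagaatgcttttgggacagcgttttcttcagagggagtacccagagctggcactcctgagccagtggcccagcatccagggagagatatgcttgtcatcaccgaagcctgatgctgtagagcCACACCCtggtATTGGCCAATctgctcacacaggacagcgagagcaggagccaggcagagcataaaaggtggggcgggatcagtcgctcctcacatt
Hbb-b1: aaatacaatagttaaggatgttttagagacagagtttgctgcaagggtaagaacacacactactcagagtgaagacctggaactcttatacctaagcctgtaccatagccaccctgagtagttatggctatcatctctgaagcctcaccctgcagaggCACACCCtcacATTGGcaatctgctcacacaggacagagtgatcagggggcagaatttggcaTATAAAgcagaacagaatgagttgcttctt

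The windows held 163 identical bases of 221 aligned (73.8%). Each held 1 CACACCC, and Hbb held 2 CCAAT matches, on opposite strands and next to each other, against 1 in Hbb-b1. TATAAA occurred 1 time in Hbb-b1 and 0 times in Hbb, which holds CATAAA, 1 base off, near the end of its window. Of 33469 promoter windows of this length, 6.12% held CACACCC, 34% CCAAT and 12.9% TATAAA. The letters AGATAA, a site form of the GATA factors, were in neither window and in 10.3% of all windows. Only exact letters were searched, so other forms of these sites were not counted. A match is a description of the sequence and not a site of binding. Genes of the beta-globin cluster are close copies of each other, so each beta-globin probe set may also take up RNA of its neighbours, and their signals are uncertain as measures of 1 gene.

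The signals are on the log2 scale as deposited, where a difference of 1 is a change of 2-fold. Medians of the 12 arrays lay between 5.63 and 5.76. The lys spike, a bacterial RNA added to every sample at low amount, served as the low-signal limit and averaged 4.44, with a range of 3.41 to 6.17. In every group it was highest on replicate 1 and lowest on replicate 3. Of all arrays it was highest on DA F replicate 1, which also had the highest signal of Hbb and Hbb-b1. Its part in those signals was not tested. All 15 endothelial markers measured lay above the mean of the spike, among them Pecam1, which encodes CD31, and their mean level was 9.98 to 10.08 in DA N, 9.92 to 10.03 in DA F, 10.22 to 10.26 in aorta N and 10.11 to 10.34 in aorta F.

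Hbb was lowest in neonatal DA ECs. Its log2 signals were 7.49, 7.19 and 6.85 in DA N (replicates 1, 2 and 3), against 9.80, 8.21 and 8.13 in DA F. In the aorta they were 8.42, 8.50 and 8.12 in N, against 8.19, 8.84 and 8.29 in F. Every DA N array was below each of the other 9 arrays, and DA F replicate 1 stood above all. The means were 7.18 ± 0.32 in DA N, 8.71 ± 0.94 in DA F, 8.35 ± 0.20 in aorta N and 8.44 ± 0.35 in aorta F (SD, n = 3 each). Only DA N stood clear in this order, as the arrays of the other 3 groups overlapped.

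Hbb-b1 was likewise lowest in DA N. It had 5.66, 5.58 and 5.43 in DA N, against 7.59, 6.25 and 5.96 in DA F. In the aorta it had 6.74, 6.35 and 5.87 in N, against 6.48, 6.52 and 6.04 in F. The 3 DA N arrays were again below all 9 others, DA F replicate 1 was again the highest, and 1 array, DA N replicate 1, was below its own lys spike. Group means were 5.56 ± 0.12 in DA N, 6.60 ± 0.87 in DA F, 6.32 ± 0.44 in aorta N and 6.35 ± 0.27 in aorta F (SD, n = 3 each).

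Alas2 was also lowest in DA N, with a smaller distance. Its signals were 4.32, 4.42 and 4.66 in DA N, against 5.06, 5.03 and 4.96 in DA F. In the aorta they were 4.76, 4.83 and 4.96 in N, against 4.87, 4.94 and 4.66 in F. DA N replicate 3 was only just below the lowest of the other 9 arrays, aorta F replicate 3, and both round to 4.66. The DA F arrays, unlike those of the beta-globins, were tight, at 5.02 ± 0.05, against 4.47 ± 0.18 in DA N, and the aorta means were 4.85 ± 0.10 in N and 4.83 ± 0.15 in F (SD, n = 3 each). Alas2 lay near the low-signal limit throughout and was below the array's own lys spike on 4 arrays, DA N replicates 1 and 2, DA F replicate 1 and aorta N replicate 1.

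Epb42 did not share this order. It had 5.45, 5.33 and 5.81 in DA N and 5.74, 5.32 and 5.44 in DA F. In the aorta it had 4.75, 5.08 and 5.39 in N and 4.49, 4.66 and 5.02 in F. N and F overlapped in both vessels, and 1 aortic array, N replicate 3, reached into the range of the DA arrays. Means were 5.53 ± 0.25 in DA N, 5.50 ± 0.22 in DA F, 5.07 ± 0.32 in aorta N and 4.73 ± 0.27 in aorta F (SD, n = 3 each). Epb42 was below the array's own lys spike on 4 arrays, replicate 1 of each group.

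**Figure D1:**
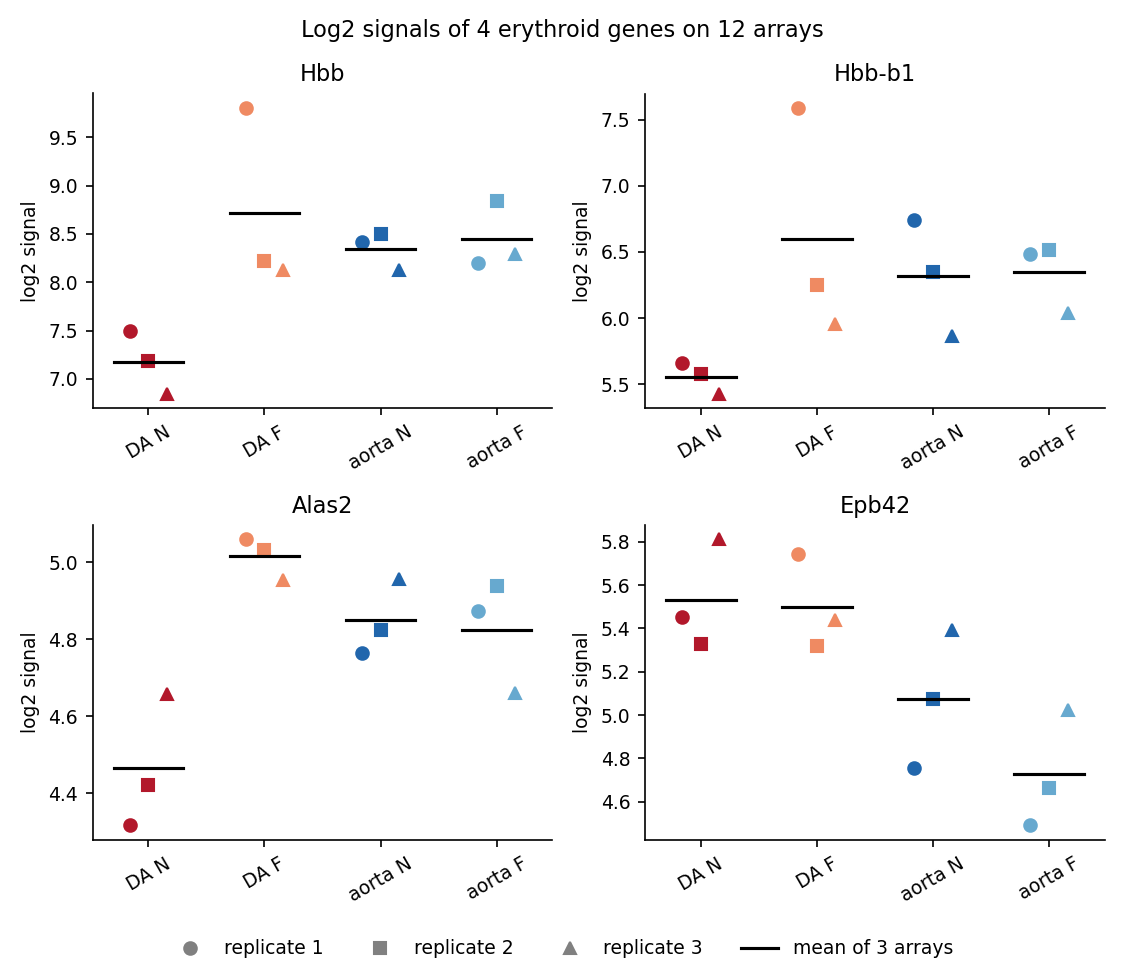
Log2 signal (y axis) of Hbb, Hbb-b1, Alas2 and Epb42 on each of the 12 arrays, by group (x axis), where marker shapes are replicate numbers and black lines are means of 3 arrays. The DA N arrays of Hbb (6.85 to 7.49), Hbb-b1 (5.43 to 5.66) and Alas2 (4.32 to 4.66) sit below all other arrays, while most DA arrays of Epb42 lie above the aortic arrays.

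A further 3 globin probe sets each carried more than 1 gene symbol and were therefore not counted with the 4 genes, 1 of them with beta-globin and 2 with alpha-globin symbols. The beta-globin probe set had 5.97, 5.89 and 5.10 in DA N, against 8.29, 6.58 and 6.27 in DA F, and the aorta had 7.26, 7.03 and 6.19 in N, against 7.31, 7.38 and 6.38 in F. The first alpha-globin probe set had 10.68, 11.00 and 11.10 in DA N, against 12.62, 11.81 and 11.77 in DA F. In the aorta it had 11.78, 11.98 and 11.84 in N, against 11.79, 12.43 and 11.78 in F. The second alpha-globin probe set gave nearly the same signals on every array. In all 3, the DA N arrays were below the other 9 and DA F replicate 1 was the highest array. Signals from alpha-globin, which lies on another chromosome than beta-globin in rat, thus had the order seen for Hbb and Hbb-b1.

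**Figure D2:**
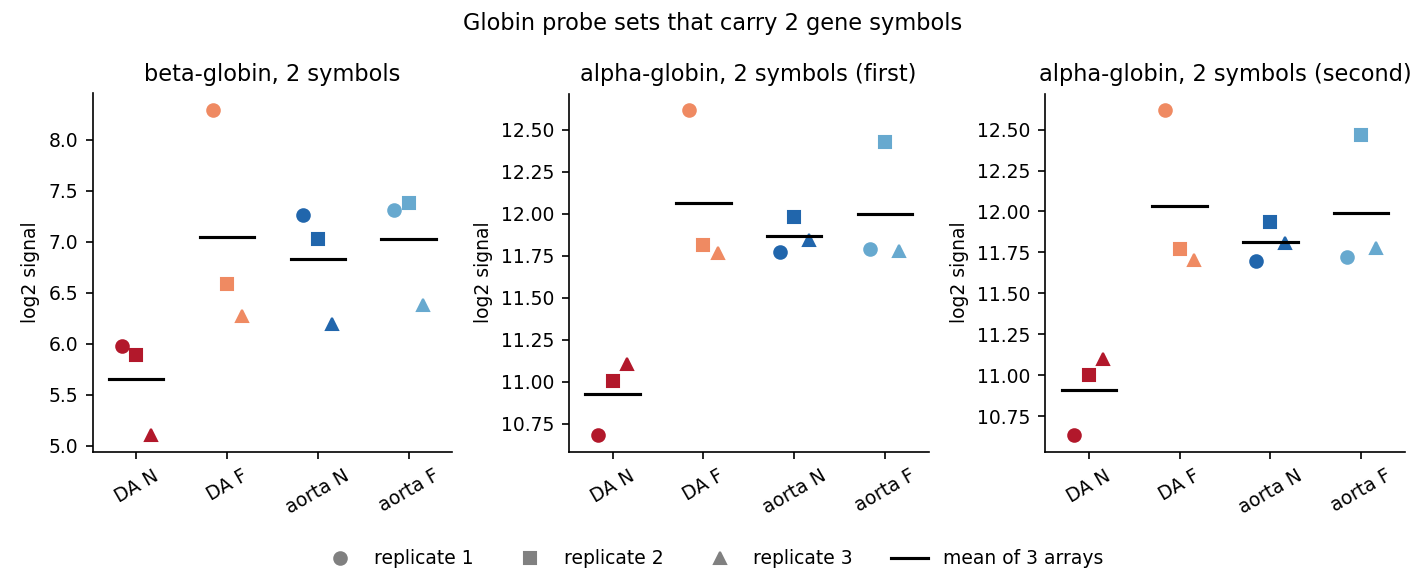
Log2 signal (y axis) on each of the 12 arrays, by group (x axis), of the 3 globin probe sets that carry more than 1 gene symbol, where marker shapes are replicate numbers and black lines are means of 3 arrays. DA N lies lowest in each panel, and DA F replicate 1 is the highest point, at 8.29 for beta-globin and 12.62 for the first alpha-globin probe set.

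The comparison taken as the one that chose the genes was N against F in the DA, although Epb42 did not stand out in it. Hbb differed by -1.54 on the log2 scale, a fold of 0.344, Hbb-b1 by -1.04 (0.485), Alas2 by -0.55 (0.683) and Epb42 by 0.03 (1.02). Over all 18690 probe sets tested, the SD of this difference was 0.155 and the median 0.02. Hbb was the lowest of all, followed by the beta-globin probe set with several symbols (-1.39), both alpha-globin probe sets (-1.14 and -1.12) and Hbb-b1. The 5 lowest differences among the probe sets tested were thus the 5 globin probe sets described here. The next were Ccn2, a matricellular growth factor gene, at -0.86 and Sele, which encodes the endothelial adhesion molecule E-selectin, at -0.75. Alas2 ranked 28 from the lowest. Across all probe sets, 1 was called in this comparison at an adjusted p under 0.05 by limma (0.00535%), which was higher in N and none of the 4 genes, and 375 had an unadjusted p under 0.05. All DA N arrays lay below all DA F arrays in 2.04% of probe sets, Hbb, Hbb-b1 and Alas2 among them, and below all 9 other arrays in 0.316%, the same 3 among them. As these values had a part in choosing the genes, nothing is read from the counts.

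Pairs of equal replicate number gave the same sign for 3 of the genes and different sizes. Hbb in N minus F of the DA was -2.31, -1.03 and -1.28 for replicates 1, 2 and 3. Hbb-b1 was -1.93, -0.68 and -0.53, and Alas2 was -0.74, -0.61 and -0.30. Epb42 was -0.29, 0.01 and 0.37. Replicate 1 gave the largest drop of Hbb, Hbb-b1 and Alas2. Without DA F replicate 1, the array with the most globin signal, the difference was -0.995 for Hbb, -0.55 for Hbb-b1, -0.53 for Alas2 and 0.15 for Epb42. The beta-globin values thus shrank by over 1.5 times and kept their sign, and the Alas2 value hardly moved.

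**Figure D3:**
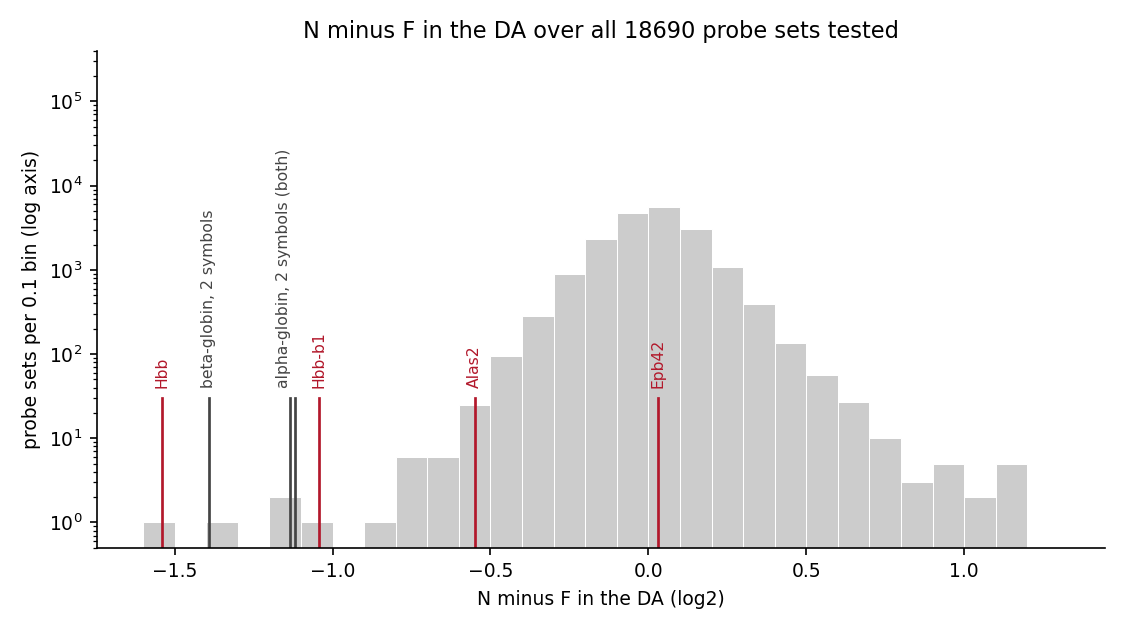
Number of probe sets per 0.1 bin (y axis, log scale) by N minus F in the DA (x axis, log2), over the 18690 tested, with vertical lines at the 4 genes (red) and at the 3 globin probe sets with several symbols (grey). The 5 globin lines, at -1.54 to -1.04, lie left of every other probe set, Alas2 at -0.55 lies in the lower tail, and Epb42 at 0.03 near the centre.

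N against F in the aorta used none of the DA arrays, and was tested. Whether aortic arrays had a part in the choice of Epb42 is not known here. None of the 4 genes passed. Hbb differed by -0.10 (SE 0.37, 95% interval -0.89 to 0.70, limma adjusted p = 1), Hbb-b1 by -0.03 (SE 0.35, interval -0.79 to 0.73, adjusted p = 1) and Alas2 by 0.02 (SE 0.13, interval -0.25 to 0.30, adjusted p = 1). Epb42 differed by 0.35 (SE 0.20, interval -0.09 to 0.79, adjusted p = 1), with all 3 numbered pairs above 0, at 0.26, 0.41 and 0.37. With the replicate number as a block its interval was 0.009 to 0.69, and it was still not called. The beta-globin intervals are wide, so smaller changes in the aorta were not detectable with 3 arrays per group. Of all 18690 probe sets, 0 were called by limma in this comparison (0%), 257 had an unadjusted p under 0.05, and the replicate number as a block called 3. Whether the change differed between the vessels could only be described, because it rests on the arrays that chose the genes: the DA change minus the aorta change was -1.44 for Hbb, -1.02 for Hbb-b1, -0.57 for Alas2 and -0.32 for Epb42.

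DA against aorta over both stages was tested. In this balanced design it is independent of N against F in the DA if DA N and DA F spread equally. The SD was 0.32 in DA N and 0.94 in DA F for Hbb, 0.12 and 0.87 for Hbb-b1, and 0.18 and 0.05 for Alas2. Tests of these 3 genes are thus not shown to be free of the comparison that chose them. Epb42 did not stand out in N against F in the DA, so its choice may have drawn on another comparison. The test of Epb42 here is thus not shown to be free of that choice. Epb42 was higher in the DA by 0.62, a fold of 1.53 (SE 0.14, 95% interval 0.31 to 0.92, limma adjusted p = 0.0164). It was higher in the DA in 6 of 6 numbered pairs, by 0.70, 0.25 and 0.42 in N and by 1.25, 0.66 and 0.42 in F. The largest difference at each stage was that of replicate 1, where Epb42 lay below the array's own lys spike in every group. The call held under the 19 alternatives that gave a value, with an adjusted p of 0.00218 to 0.0461. The alternative that required every array to exceed its own spike left Epb42 out. Of all probe sets, 8.12% were called in this comparison (597 higher in the DA, 3.19%, and 921 lower, 4.93%), and in 2.91% all 6 DA arrays lay above all 6 aortic arrays, which Epb42 did not do. Markers of other vessel wall cells differed between the vessels too. The mean level of the 12 smooth muscle markers measured was 7.28 to 7.64 in DA N and 7.22 to 7.43 in DA F, against 6.99 to 7.06 in aorta N and 6.96 to 7.03 in aorta F. Of these 12, 5 were called higher in the DA, led by Actg2 at 1.52 (limma adjusted p = 2.41e-05), and 2 lower, Myocd at -0.59 (adjusted p = 0.00477) and Mylk at -0.45 (adjusted p = 0.00659). Of 10 fibroblast and matrix genes tested, 3 were called higher and 2 lower, with a median of 0.28. The mean level of the 11 measured was 8.22 to 8.37 in DA N and 8.11 to 8.28 in DA F, against 7.999 to 8.08 in aorta N and 7.94 to 8.09 in aorta F. The part of these cells in the Epb42 difference was not tested.

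The other 3 genes were not called between the vessels. Hbb differed by -0.45 (SE 0.26, 95% interval -1.02 to 0.11, adjusted p = 0.423), Hbb-b1 by -0.26 (SE 0.25, interval -0.79 to 0.28, adjusted p = 0.712) and Alas2 by -0.10 (SE 0.09, interval -0.29 to 0.10, adjusted p = 0.691). For Hbb, DA F replicate 1 decided this. Without it the difference was -0.72 and passed, at an adjusted p of 0.0138 by limma, and with array weights it was -0.67, at 0.0307. These 2 fits weigh the DA arrays unequally, so they are not independent of the comparison that chose Hbb. The paper also lists Hbb among the genes lower in DA than in aortic ECs in N. Over all 20 alternatives the adjusted p of Hbb ran between 0.0138 and 0.704.

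The vessels were also set against each other within each stage. In N, DA minus aorta was -1.17 for Hbb (a fold of 0.444), -0.76 for Hbb-b1, -0.38 for Alas2 and 0.46 for Epb42. In F the same differences were 0.27, 0.25, 0.19 and 0.78. The F values of the beta-globins rest on replicate 1, where Hbb differed by 1.61, against -0.62 and -0.17 for replicates 2 and 3. Without DA F replicate 1, Hbb in F was -0.27 and Hbb-b1 -0.24. In N all 3 numbered pairs of Hbb ran the same way, at -0.93, -1.31 and -1.28. These differences share DA arrays with the comparison that chose the genes and are given without a test.

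Over the 12 arrays the globin signals ran together. Hbb correlated with Hbb-b1 at r = 0.93 and with the first alpha-globin probe set at 0.91, and over the 9 arrays other than DA N at 0.90 and 0.93. Alas2 correlated with Hbb at 0.70 over all arrays and at 0.38 over those 9, so that this likeness lay largely in the low DA N arrays. Epb42 correlated with Hbb at -0.22 over all arrays. The arrays may share handling and normalization, so these are descriptions.

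Other erythroid genes were looked up in 5 lists that hold 80 further genes, of which 59 had a probe set of their own and 52 were tested. In N against F in the DA, 0 of the 52 were called, 31 lay below 0, and the median was -0.02, against 0.02 over all probe sets. In the aorta, 0 of 52 were called and the median was 0.01, against 0.00 over all. Neither list median was far from that of all probe sets, and no list gene reached the differences of the globins. Some list genes lay close to the mean of the spike, so a change in them could be missed.

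Among globins, Hba-a3, an alpha-globin gene, was the only further one tested. Its signal was 5.23 to 5.54 in DA N, against 5.83 to 5.95 in DA F, a difference of -0.55 (SE 0.24), and in the aorta N minus F was -0.15. Its DA groups did not overlap, but limma did not call it. The embryonic globins Hbe1 and Hbe2, the beta-like Hbg1 and Ahsp, which encodes the chaperone of free alpha-globin, had mean signals of 3.49, 2.67, 3.30 and 2.35, below the mean of the spike.

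The heme synthesis enzymes and transporters, with 12 of 12 measured genes tested, had a median of -0.08 in N against F of the DA, and 7 lay below 0. The enzymes Cpox, Ppox and Alad differed by -0.21, -0.15 and -0.14, and Slc25a38, which encodes a mitochondrial glycine carrier needed for heme synthesis, by 0.17. Alas1, the form of the enzyme found in all tissues, differed by 0.03, against -0.55 for Alas2. Between the vessels Fech, the enzyme that inserts iron to make heme, was higher in the DA by 0.38 (SE 0.10, limma adjusted p = 0.0332).

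Of the red cell membrane and skeleton genes 13 were tested, and their median in N against F of the DA was -0.03. Slc4a1, which encodes band 3, the partner of protein 4.2, differed by -0.05 there and by 0.00 between the vessels, where Epb42 differed by 0.62. The mean signal of Slc4a1 was 4.71, close to the 4.44 of the spike, which limits what it can show. Aqp1, a water channel gene used by red cells and by endothelium, differed by 0.24 in N against F of the DA and exceeded its aortic level in the DA by 0.51 (SE 0.11, adjusted p = 0.0104). Xk, which encodes a membrane protein that carries a red cell antigen, differed by -0.17 in N against F of the DA and was higher in the DA by 0.48 (SE 0.09, adjusted p = 0.00463). Slc2a1, the glucose transporter gene, was higher in the DA by 0.30 (SE 0.08, adjusted p = 0.0449). The skeleton genes Add2 and Sptb had -0.16 and -0.11 for N minus F in the DA. Between the vessels 3 of the 13 were called higher in the DA by limma and 0 lower, against 3.19% and 4.93% of all probe sets. Aqp1 and Slc2a1 are also used by other cells.

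Erythroid transcription factors and receptors showed little. Of 13 tested, 0 were called in any of the 3 comparisons named. Nfe2, a globin gene activator, had the largest difference between N and F in the DA, at -0.29 (SE 0.13), with 5.24 to 5.63 in DA N, against 5.55 to 5.91 in DA F. Trim10, Epor, the erythropoietin receptor gene, and Stat5a differed by 0.12, 0.10 and 0.10. Klf1 and Gata1, the activators that drive erythroid genes, differed by -0.01 and -0.04. Gata1, at a mean signal of 4.62, lay close to the mean of the spike, which limits it. The 13 red cell enzyme and maturation genes tested also had 0 calls between N and F. Their largest differences in the DA were 0.32 for Ube2l6, 0.21 for Fbxo7, 0.20 for Bpgm, which makes the 2,3-bisphosphoglycerate that lowers oxygen binding, and 0.19 for Car2, a carbonic anhydrase gene. Between the vessels Gpx1, a glutathione peroxidase gene, was higher in the DA by 0.37 (SE 0.08, adjusted p = 0.00762) and Pim1, a kinase gene, was lower, at -0.35 (SE 0.09, adjusted p = 0.0345). Over all 5 lists, 5 of the 52 genes tested were called higher in the DA and 1 lower, against 3.19% and 4.93% of all probe sets. Their median was 0.03, against 0.00 over all probe sets.

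**Figure D4:**
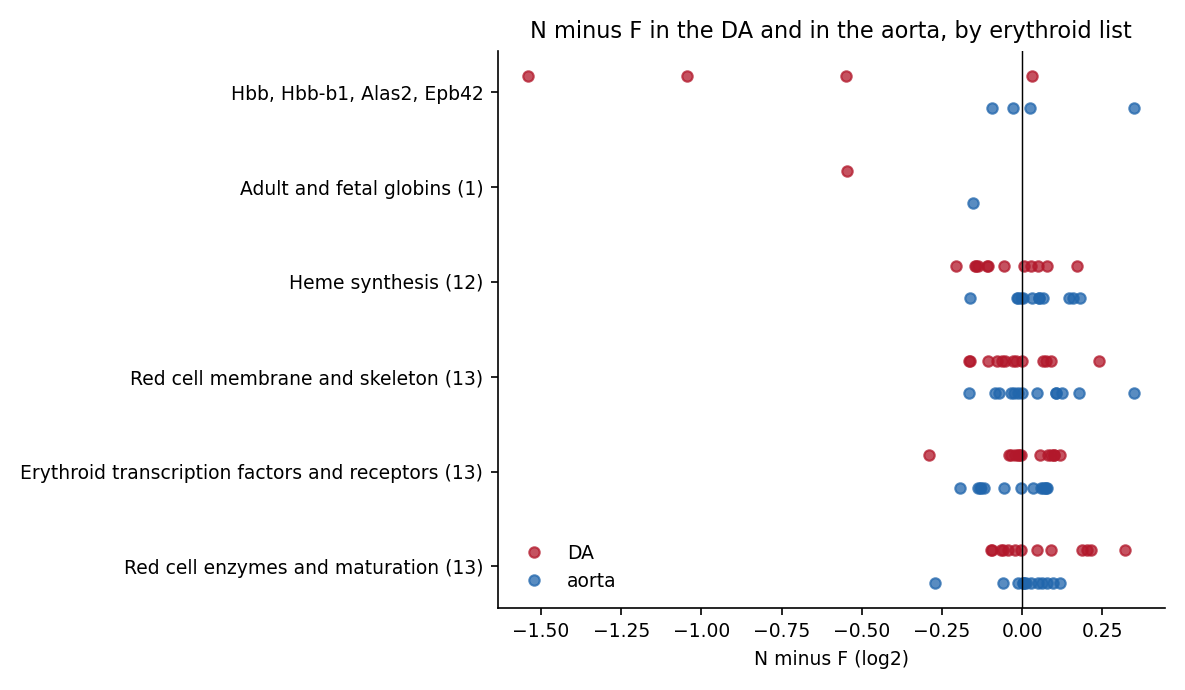
N minus F (x axis, log2) of single genes in the DA (red) and in the aorta (blue), for Hbb, Hbb-b1, Alas2 and Epb42 in the top row and for 5 lists of further erythroid genes below, with the number of genes tested in brackets. Of the 52 list genes only Hba-a3, at -0.55 in the DA, comes near the low values of the top row.

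Markers of other blood cells were read on the same arrays. Of 18 leukocyte markers measured, 9 lay above the mean of the spike, and Ptprc, which encodes CD45, was below it at a mean of 3.40. Their mean level was 4.18 to 4.61 in DA N, 4.47 to 4.63 in DA F, 4.28 to 4.70 in aorta N and 4.33 to 4.57 in aorta F, so the groups overlapped. Of 6 platelet and megakaryocyte markers measured, 5 lay above the mean of the spike, and their mean level was 5.29 to 5.75 in DA N, 5.40 to 5.72 in DA F, 5.34 to 5.86 in aorta N and 5.27 to 5.61 in aorta F. In N against F in the DA, 0 of the 9 leukocyte markers tested were called, 6 lay below 0 and the median was -0.10. Over all probe sets the median was 0.02. Of the 5 platelet markers tested, 0 were called, 2 lay below 0 and the median was 0.04. Neither list set DA N apart as the globins did, and the part of either in the globin signals was not tested.

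The genes whose signals ran most like the mean of the 4 genes over the 12 arrays, among 11895 probe sets compared, were Usp29 (r = 0.80), Poll (0.79), Fam110a (0.78), Rhbdf1 (0.78) and Arpc1b (0.73). Rhbdf1 lies near the alpha-globin cluster in mammals. The lowest correlations were those of Irf3 (-0.84), Apbb1 (-0.80), Lgalsl (-0.78), Tmprss7 (-0.78) and Mef2a (-0.75). Because Epb42 ran apart, the same was done for Hbb alone, which was decided once the values were known, and Myc (0.83), Rhbdf1 (0.82), Usp29 (0.78), Ccn1 (0.77) and Zbtb24 (0.77) came first. Both rankings left out the 4 genes and every probe set with several symbols. Hbb correlated more highly with the globin probe sets so left out, at 0.93 for beta-globin and at 0.91 and 0.90 for alpha-globin. The correlations were picked from among 11895 on 12 arrays and carry no test.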

How the data were processed

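The authors labelled total RNA of sorted ECs and measured it on 12 Affymetrix Rat Gene 1.0 ST arrays. The authors deposited log2 signals per probe set, already summarised and normalized by a procedure not given in the sources read here. How it treated low signals could affect values near the spike. Symbols came from the platform annotation, with 15307 probe sets carrying 1 symbol, 323 several and 10838 none. Probe sets with a mean over the 12 arrays below the lys spike (7778) were left out, so 18690 were tested. The study also excluded low signals by this spike, and it left out more probe sets. Requiring every array to exceed its own spike, an alternative here, kept 11525, and of the 4 genes only Hbb passed it. Linear models with 1 mean per group were fitted to the 18690 in limma 3.58.1 (R 4.3.3), with Benjamini-Hochberg adjustment over all of them and a threshold of 0.05. The procedure was tested on simulated data.

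Genes and lists were chosen with earlier results of these data known. Named are the 4 genes, markers and erythroid list genes (up to 4 per list by size of N minus F in the DA), and the genes with the most and least alike signals. A list used the brightest probe set per gene. Replicate numbers paired the arrays: deviations from group means correlated at 0.10 to 0.82 for the 18 pairs of equal number, against -0.74 to 0.37 for the other 36. Their meaning is not stated in the sources. The main models did not use these pairs, and the replicate block did. The array's genome build is not named, so promoter coordinates are those of RefSeq. The number of arrays limits the precision. Alternatives were the replicate block, other filters and normalizations, an intensity trend, array weights, the methods' t-test, only the groups compared, and each array left out.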

Additional observations from a re-analysis of the deposited data

Results flagged for a closer look

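Alas2 ran in opposite directions between the vessels at the 2 stages. In N, the DA was below the aorta in 3 of 3 numbered pairs, at -0.45, -0.40 and -0.30 on the log2 scale. In F, it was above the aorta in 3 of 3 pairs, at 0.19, 0.09 and 0.29. The change between stages in the DA minus that in the aorta was -0.57. This difference was not tested, because it uses the DA arrays by which Alas2 was chosen.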

How the results depend on the processing

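Between the vessels over both stages, 1518 probe sets were called, against 3327 with the replicate block and 2978 with array weights (1121 to 1509 with 1 array left out). In F 705 were called, against 1951 with the block, 1300 with weights and 67 by the methods' t-test (Benjamini-Hochberg adjusted) (489 to 766 with 1 array left out). In N 586 were called, against 1358, 2077 and 44 by these, and 318 with only the groups compared (318 to 583 with 1 array left out). Without DA N replicate 2 there were 318, without aorta N replicate 1 344 and without aorta N replicate 2 371.

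N against F in the DA gave 1 call, against 10 with the block, 20 with weights, 2 with an intensity trend and 0 with median-centred arrays, the t-test or only the groups compared (0 to 4 with 1 array left out). In the aorta it gave 0, against 3 with the block and 3 with weights (0 to 0 with 1 array left out), and over both vessels 2, against 23 with the block, 33 with weights, 5 with the trend and 0 by the t-test (2 to 3 with 1 array left out). The causes were not tested.

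The replicate block changed no call of the 4 genes in the 2 comparisons tested for them, DA against aorta over both stages (Epb42 adjusted p = 0.00218 with the block) and N against F in the aorta. The differences within a stage are descriptions and carry no call. Hbb between the vessels passed with array weights (-0.67) and without DA F replicate 1 (-0.72), the lowest of -0.72 to -0.30 with 1 array left out. N minus F in the DA stayed below 0 for Hbb (-1.83 to -0.995, 21 of 21 alternatives), Hbb-b1 (-1.37 to -0.55, 20 of 20) and Alas2 (-0.65 to -0.48, 20 of 20), and for Epb42 ran between -0.11 and 0.15. Hbb-b1, Alas2 and Epb42 gave no value where every array had to exceed its spike. Alas2 and Epb42 lay close to the spike, which limits both.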
